A study of Homo sapiens with 6 samples.

Results

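Complex I (NADH:ubiquinone oxidoreductase) is the entry point of electrons into the mitochondrial respiratory chain. It oxidises NADH in a matrix arm that carries the flavin and the iron-sulfur clusters, passes the electrons to ubiquinone, and pumps protons through a membrane arm. Its core subunits are divided between the nuclear and the mitochondrial genome, a larger set of accessory subunits is nuclear-encoded, and dedicated assembly factors help build the complex without remaining in it. The genes described here are the nuclear-encoded subunits and assembly factors named NDUFA, NDUFB, NDUFC, NDUFS, NDUFV or NDUFAF followed by a number, together with NDUFAB1. They numbered 46 of the 60643 rows of the expression table, each symbol occurring once. By role there were 7 core subunits, 9 accessory subunits of the matrix arm, 20 accessory subunits of the membrane arm, the acyl carrier protein NDUFAB1, 8 NDUFAF assembly factors, and NDUFA4, which carries the family name but is now assigned to complex IV (cytochrome c oxidase).

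The libraries came from HCT116, an established human colorectal cancer line, in which doxycycline switches on a hairpin RNA that targets CAPG, an actin filament capping protein. There were 3 libraries without doxycycline (-Dox; genotype label WT, treatment label Untreated) and 3 treated for 3 days with 100 ng/µl doxycycline (unit as labelled) (+Dox; genotype label CAPG Knockdown). All 6 carry the same hairpin name, and cells given doxycycline without a CAPG hairpin were not analysed here. Doxycycline is a tetracycline antibiotic that is also known to inhibit protein synthesis on mitochondrial ribosomes, so the effect of the drug and that of the hairpin cannot be told apart in this comparison. Nothing in the labels says that replicates were separate cultures, so the p-values reflect library-to-library spread alone, possibly technical.

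CAPG was at 61.1, 56.9 and 53.7 FPKM (fragments scaled to transcript length and to library size) without doxycycline and at 8.18, 8.03 and 9.97 FPKM with it (log2 change -2.59, SE 0.10, limma adjusted p = 7.24e-06). The table names no unit, and FPKM was inferred from its values. The estimated depth was 14100000 fragments in -Dox 3 and between 17700000 and 17900000 in the other 5 libraries. For a transcript of 1 kb, a count of 3 fragments then equals 0.168 to 0.212 FPKM, and the lowest value of any complex I gene was 7.46 FPKM. FPKM summed to 521832 to 536037 in 5 libraries and to 586911 in +Dox 3. Of 8 epithelial markers 7 reached 1 FPKM in at least 3 libraries (summed level 1738 to 1959 FPKM in -Dox and 1941 to 2289 in +Dox), while VIL1, an intestinal brush border gene, stayed between 0.0156 and 0.133 FPKM. Of the 6 leukocyte and 4 endothelial markers none reached that level. Their summed levels were 0.802 to 1.96 and 0.195 to 0.246 FPKM in -Dox, and 0.743 to 1.53 and 0.177 to 0.574 FPKM in +Dox. Among 6 fibroblast markers COL1A1 reached it, and COL1A2 and DCN were listed at 0 in every library (summed level 7.97 to 11.3 FPKM in -Dox and 7.58 to 9.80 in +Dox).

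Most complex I genes lay somewhat higher with doxycycline, and few passed the test one by one. All 46 were tested (at least 1 FPKM in at least 3 libraries). NDUFC2, NDUFA13 and NDUFA6, accessory subunits, rose, and NDUFB1, an accessory subunit of the membrane arm, fell, at a limma p adjusted over all 14475 tested genes of under 0.05. Thus 3 of 46 were called higher (3.69% of all tested genes) and 1 of 46 lower (4.77%). The log2 change, taken throughout as +Dox minus -Dox on log2(FPKM + 1), was positive in 37 of the 46 (49.6% of all tested genes) and had a median of 0.22 (all tested genes, 0.00). With limma's p left unadjusted, 22 were higher (13.6% of all tested genes) and 1 was lower (14.3%) at 0.05. The groups did not overlap in 24 genes (34.5% of all tested genes), of which 23 were higher (17.0%) and NDUFB1 was lower (17.5%).

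The third doxycycline library carried much of this height. In 37 of the 46 genes +Dox 3 was the highest of the 6 libraries, as it was in 28.0% of all tested genes. The median deviation of the 46 genes from their -Dox mean was 0.10 in +Dox 1, 0.15 in +Dox 2 and 0.42 in +Dox 3 on the log2 scale, while over all tested genes it was -0.01, 0.00 and 0.01. The summed FPKM of the 46 genes made up 0.646%, 0.636% and 0.637% of the libraries -Dox 1, 2 and 3, and 0.676%, 0.687% and 0.757% of +Dox 1, 2 and 3. Every doxycycline library was thus above every untreated one in this share, and +Dox 3 stood apart from the others.

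**Figure D1:**
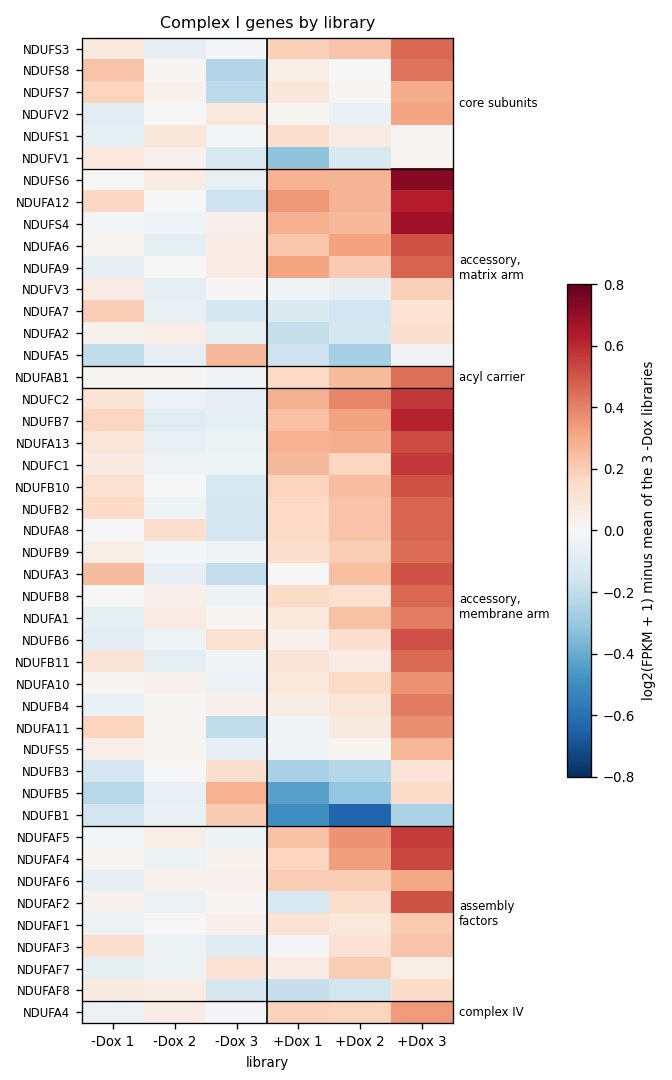
Each row is one of 45 complex I genes and each column a library; colour is log2(FPKM + 1) minus the gene's mean over the 3 -Dox libraries, and lines separate the groups and the roles. Most rows are pale red in +Dox 1 and +Dox 2 and darker in +Dox 3, which was the highest library in 37 of 46 genes, while NDUFB1 is blue in all 3 +Dox libraries.

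Without +Dox 3 the median log2 change of the 46 genes was 0.12 (all tested genes, -0.01) and 34 were positive (48.9% of all tested genes). In that fit of 5 libraries 4 genes were called higher (2.85% of all tested genes) and 1 was called lower (4.06%). Unadjusted, 17 were higher (12.6%) and 5 lower (14.6%) at 0.05. NDUFC2, NDUFA13 and NDUFB1 were called in both fits, NDUFA6 was called with 6 libraries (limma adjusted p = 0.0493, and 0.0716 with 5), and NDUFS4 and NDUFS6, matrix arm subunits, were called with 5 libraries (0.0396 and 0.0417, against 0.0546 and 0.0596 with 6). The 2 remaining doxycycline libraries lay above all 3 untreated ones in 23 genes (22.5% of all tested genes) and below them in 5 (24.2%). Those 5 were NDUFB1, NDUFB3, NDUFB5, NDUFA2 and NDUFAF8.

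**Figure D2:**
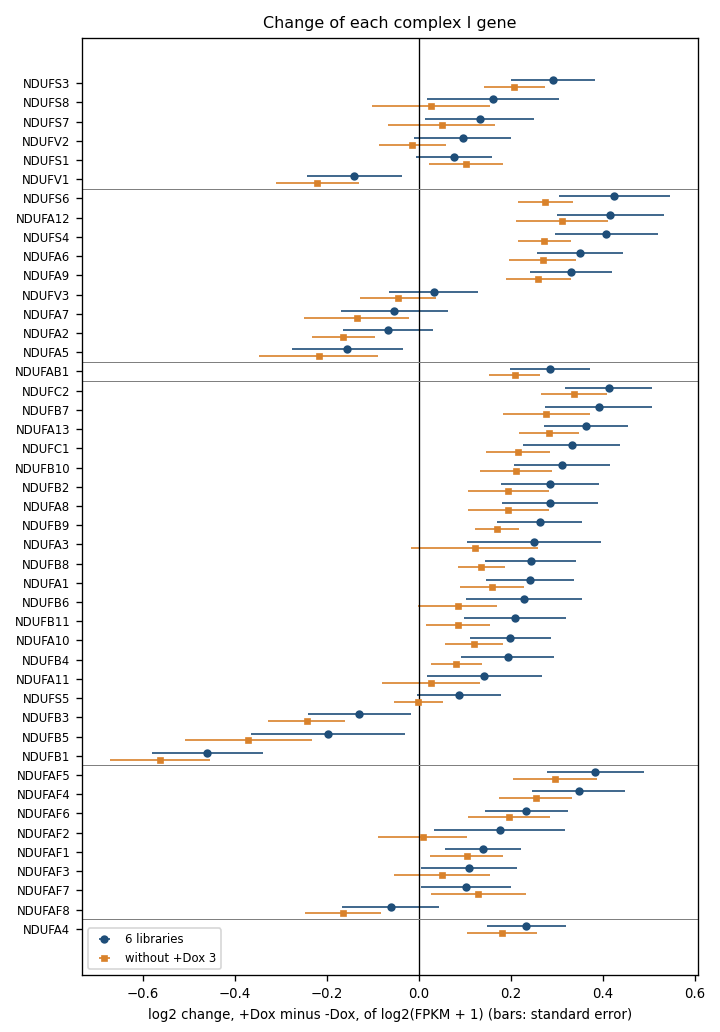
The log2 change of 45 complex I genes (horizontal axis, +Dox minus -Dox of log2(FPKM + 1)) is plotted for the fit of all 6 libraries (circles) and the fit without +Dox 3 (squares), with bars for the standard error and lines between the roles. Most squares lie to the left of their circles, with medians of 0.12 and 0.22, and NDUFB1 lies lowest in both fits.

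Levels differed widely by role. FPKM is scaled to transcript length, so levels were set side by side between genes. Transcript length, GC content and reads shared with pseudogenes, described below, may still bear on them. The median level over the 6 libraries was 102 FPKM in the membrane arm accessory subunits, 52.8 in those of the matrix arm, 43.4 in the core subunits and 13.2 in the NDUFAF assembly factors. NDUFS5 and NDUFB9, accessory subunits of the membrane arm, were at the top with means of 336 and 334 FPKM. Their order was not stable, with NDUFS5 at 325 ± 14.2 and NDUFB9 at 303 ± 8.37 FPKM in -Dox, and at 346 ± 37.9 and 365 ± 42.4 FPKM in +Dox (SD, n = 3 each). NDUFAF6 and NDUFAF7 were the lowest, at 8.65 and 8.69 FPKM, and their ranges over the 6 libraries overlapped.

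The core subunits of the matrix arm bind the flavin and the iron-sulfur clusters and carry the electrons from NADH to ubiquinone. None of the 7 passed the limma test in either fit, where 8.46% of all tested genes were called with 6 libraries and 6.91% with 5. Their median log2 change was 0.10, and 0.03 without +Dox 3. With 6 libraries the one gene higher at an unadjusted p of 0.05 was NDUFS3, a subunit of the ubiquinone-reducing part, with 68.5, 61.8 and 64.0 FPKM in -Dox 1, 2 and 3 and 73.9, 76.0 and 89.4 FPKM in +Dox 1, 2 and 3 (log2 change 0.29, SE 0.09, limma adjusted p = 0.079). Its groups did not overlap, and +Dox 3 was the highest library. NDUFV1, which binds the flavin and NADH, had a negative change, with 70.2, 67.7 and 60.6 FPKM in -Dox and 52.6, 60.7 and 67.0 FPKM in +Dox (log2 change -0.14, limma adjusted p = 0.41). The groups overlapped, as +Dox 1 lay below every untreated library and +Dox 2 and +Dox 3 lay within their range. NDUFS8 and NDUFS7, which hold the iron-sulfur clusters nearest to ubiquinone, had overlapping groups, with -Dox 1 above +Dox 1 and +Dox 2 in both. NDUFS8 was at 47.6, 40.8 and 34.2 FPKM in -Dox and at 42.0, 40.6 and 55.0 in +Dox, and NDUFS7 at 31.5, 28.4 and 23.9 and at 29.6, 27.9 and 34.3 FPKM (limma adjusted p = 0.501 and 0.504). NDUFS1 and NDUFV2, also core subunits, had log2 changes of 0.08 and 0.10, each with overlapping groups.

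The accessory subunits of the matrix arm surround the electron-carrying core. Their median log2 change was 0.33 (0.26 without +Dox 3), and before adjustment of p 5 of 9 were higher (13.6% of all tested genes) and 0 lower (14.3%). NDUFA6, which lies at the junction of the arms, rose from 45.6, 42.5 and 46.9 FPKM in -Dox to 52.5, 56.4 and 64.5 FPKM in +Dox (log2 change 0.35, SE 0.09, limma adjusted p = 0.0493). All 3 doxycycline libraries were above all untreated ones, and the +Dox mean was 128.5% of the -Dox mean (121% without +Dox 3). NDUFS4 and NDUFS6, accessory subunits of the NADH-oxidising module, had the largest +Dox 3 excess among the 9 matrix arm accessory subunits. NDUFS4 was at 70.4, 69.3 and 73.1 FPKM in -Dox and at 86.8, 85.1 and 114 FPKM in +Dox (log2 change 0.41, SE 0.11, or 0.27 without +Dox 3). NDUFS6, which takes part in zinc binding in that module, was at 85.4, 89.3 and 82.1 FPKM in -Dox and at 104, 104 and 142 FPKM in +Dox (log2 change 0.43, SE 0.12, or 0.28 without +Dox 3). In both genes the other 2 doxycycline libraries were within 2 FPKM of each other and above every untreated library. Leaving out +Dox 3 thus lowered the change and also the spread, and the 2 genes were called in that fit.

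NDUFA12 and NDUFA9 had non-overlapping groups as well. NDUFA12, the subunit that the assembly factor NDUFAF2 resembles, was at 60.2, 53.8 and 47.6 FPKM in -Dox and at 68.6, 65.0 and 83.3 in +Dox (log2 change 0.42, SE 0.12, limma adjusted p = 0.0568). NDUFA9, an NAD(P)-binding subunit near the ubiquinone site, was at 51.4, 54.0 and 56.4 FPKM in -Dox and at 67.3, 62.3 and 75.2 in +Dox (log2 change 0.33, SE 0.09, limma adjusted p = 0.0509). The other 4 matrix arm accessory subunits, NDUFV3, NDUFA7, NDUFA2 and NDUFA5, had log2 changes of 0.03, -0.05, -0.07 and -0.16, and their groups overlapped. NDUFAB1, the mitochondrial acyl carrier protein that sits in both arms and also serves lipoic acid synthesis, was at 117, 117 and 114 FPKM in -Dox and at 130.0, 139 and 158 FPKM in +Dox. The untreated libraries differed little and all lay below the treated ones, but the gene did not pass the test (log2 change 0.29, SE 0.09, limma adjusted p = 0.0716).

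**Figure D3:**
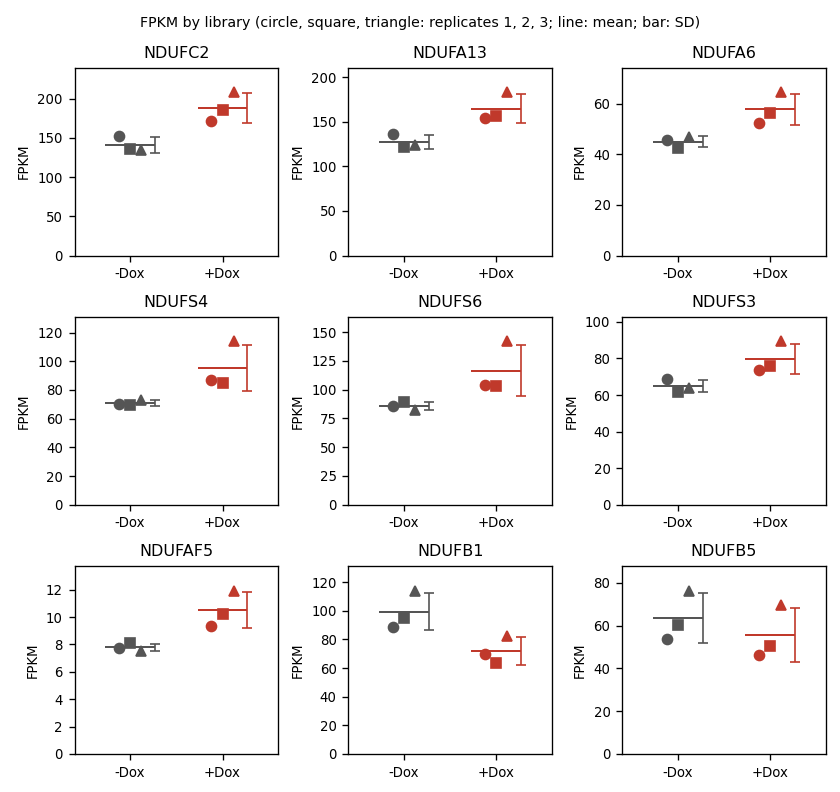
FPKM of 9 complex I genes is plotted for each library (vertical axis from 0; circles, squares and triangles for replicates 1, 2 and 3; line, group mean; bar, SD). In the first 7 panels every +Dox point lies above every -Dox point with replicate 3 on top, NDUFB1 lies lower in +Dox without overlap, and the NDUFB5 groups overlap.

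NDUFC2 was the complex I gene with the smallest p. It encodes a short accessory subunit of the membrane arm (chromosome 11, 78068297 to 78079862, minus strand, GRCh38). It was at 152, 136 and 135 FPKM in -Dox and at 171, 185 and 208 FPKM in +Dox (log2 change 0.41, SE 0.09, limma adjusted p = 0.0302). The lowest treated library was above the highest untreated one, and the mean was 134% of the untreated mean, or 126.5% without +Dox 3. The gene shares 431 exonic bases with the readthrough gene NDUFC2-KCTD14, listed at 3.22 FPKM. NDUFA13, also known as GRIM-19 and described as a partner of STAT3 besides its place in the membrane arm (chromosome 19, 19515736 to 19529054, plus strand), was at 137, 122 and 124 FPKM in -Dox and at 154, 156 and 183 FPKM in +Dox (log2 change 0.36, SE 0.09, limma adjusted p = 0.0419). Its groups did not overlap, and the mean was 129% of the untreated mean (122% without +Dox 3).

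NDUFB1, a small single-pass accessory subunit (chromosome 14, 92116122 to 92121917, minus strand), was the exception among the called genes. It was at 88.9, 95.3 and 114 FPKM in -Dox and at 70.0, 63.4 and 82.7 FPKM in +Dox (log2 change -0.46, SE 0.12, limma adjusted p = 0.0477). The highest treated library, again +Dox 3, stayed below the lowest untreated one, and the mean was 72.4% of the untreated mean (67.1% without +Dox 3, log2 change -0.56). A processed copy, NDUFB1P1, was listed at 5.43 FPKM against 85.8 for NDUFB1, and reads may be exchanged between them. NDUFB5 and NDUFB3, named here after their values were seen, were the next lowest of the membrane arm. NDUFB5 was at 53.9, 60.4 and 76.5 FPKM in -Dox and at 46.3, 50.6 and 69.9 FPKM in +Dox, and NDUFB3 at 86.6, 95.3 and 104 and at 79.3, 80.9 and 102 FPKM. In both, +Dox 1 and +Dox 2 were below every untreated library and +Dox 3 was not (limma adjusted p = 0.484 and 0.494).

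NDUFB7, a membrane arm subunit on the intermembrane space side, was at 60.8, 50.4 and 50.9 FPKM in -Dox and at 63.5, 67.4 and 83.1 FPKM in +Dox (log2 change 0.39, SE 0.12, limma adjusted p = 0.0685). Its groups did not overlap, with -Dox 1 the nearest untreated library to the treated ones. Over the 20 membrane arm accessory subunits the median log2 change was 0.24 (0.13 without +Dox 3), 17 were positive (49.6% of all tested genes), and before adjustment of p 11 were higher (13.6%) and 1 was lower (14.3%). The range ran from -0.46 (NDUFB1) to 0.41 (NDUFC2). NDUFS5, the most abundant, was at 338, 328 and 310 FPKM in -Dox and at 320, 329 and 390 FPKM in +Dox, so that its positive log2 change of 0.09 rested on +Dox 3 (0.00 without it).

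The NDUFAF assembly factors act on different intermediates of the complex. Of the 8, none passed the limma test in either fit, before adjustment of p 3 were higher (13.6% of all tested genes) and 0 lower (14.3%) with 6 libraries, and the median log2 change was 0.16 (0.12 without +Dox 3). NDUFAF5, which hydroxylates an arginine of NDUFS7, was at 7.72, 8.08 and 7.54 FPKM in -Dox and at 9.33, 10.2 and 11.9 FPKM in +Dox (log2 change 0.38, SE 0.11, limma adjusted p = 0.0549). NDUFAF4, a factor of the early ubiquinone module, was at 26.9, 26.0 and 27.4 FPKM and at 30.3, 34.1 and 39.2 FPKM (log2 change 0.35, SE 0.10, limma adjusted p = 0.0619). Its limma adjusted p was 0.0484 without +Dox 1, and between 0.097 and 0.194 with any other single library left out. NDUFAF5 and NDUFAF4 both had groups that did not overlap. NDUFAF6 was at 7.46, 8.06 and 8.09 FPKM in -Dox and at 9.17, 9.15 and 9.98 FPKM in +Dox (log2 change 0.23, limma adjusted p = 0.131). NDUFAF1, a factor of the membrane arm intermediate, was at 14.3, 14.8 and 15.2 FPKM and at 16.2, 15.7 and 17.3 FPKM (log2 change 0.14, limma adjusted p = 0.309). In these 2 the groups were again apart, though the change was small. NDUFAF8, which works with NDUFAF5, had a log2 change of -0.06, the only negative one among the 8. NDUFA4 was at 17.2, 18.6 and 17.7 FPKM in -Dox and at 20.4, 20.3 and 22.9 FPKM in +Dox (log2 change 0.23, SE 0.09, limma adjusted p = 0.114), also without overlap.

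The 4 calls of the fit of 6 libraries lay close to the threshold. NDUFA6 lost its call with a pseudocount of 0.1 (limma adjusted p = 0.05004) and with a filter on the mean level (0.05051), which left 3 calls in each. All 4 were lost without -Dox 1, -Dox 2, -Dox 3 or +Dox 2, with limma adjusted p between 0.0543 and 0.184. Without +Dox 1 NDUFC2 (0.0363) remained called and the other 3 did not (0.0543 for NDUFA6, 0.0609 for NDUFA13 and 0.0975 for NDUFB1). After a correction for transcript length and GC content in each library, 9 of the 46 were called higher (8.46% of all tested genes) and 1 was called lower (8.72%), and the median log2 change was 0.19. The 9 called higher after this length and GC correction were NDUFC2, NDUFA13, NDUFA6, NDUFS4, NDUFS6, NDUFAB1, NDUFS3, NDUFB7 and NDUFB10, and the 1 called lower was NDUFB1 (log2 change -0.52, limma adjusted p = 0.00926). Scaling by median-of-ratios gave 8 higher (4.45%) and 1 lower (5.1%), and equal FPKM totals gave 7 higher (3.14%) and 1 lower (6.13%). Library weights called 21 higher (20.0%) and 6 lower (22.1%). The lowest weight went to +Dox 3 (0.251) and by far the highest to -Dox 2 (7.557). As -Dox 1 and -Dox 3 had weights of 0.491 and 0.433, the untreated side of that fit rested mostly on -Dox 2. Without the filter on low values 0 were called in either direction (0.164% and 0.309%).

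Transcript length and base composition moved with the spread inside the groups. The longest annotated transcript had a median of 1407 bases over the 46 genes and of 3245.5 bases over all tested genes. The excess of +Dox 3 over the mean of +Dox 1 and 2 was taken on the log2 scale. Its median was 0.18 in the shortest quartile of all tested genes (up to 1915 bases, 3605 genes, 27 of them complex I genes). In the longest quartile (over 5036 bases) the median was -0.125. The 27 complex I genes of the shortest quartile had a median of 0.31. The 4 of the longest quartile had a median of 0.20, with NDUFS1 below 0 (-0.08). Across the 46 genes the excess in +Dox 3 had a Pearson correlation of -0.43 with log2 length (Spearman -0.43, n = 46 genes). This is a description over genes of the same libraries, which are not independent replicates.

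Within the untreated group the genes were ordered by GC content. The difference between -Dox 3, the shallowest library, and -Dox 1 had a Pearson correlation of -0.73 with the GC content of the transcript over the 46 genes (Spearman -0.76), and of -0.45 over 14406 tested genes (Spearman -0.60). In 4 complex I genes -Dox 3 was the highest of the 6 libraries (15.6% of all tested genes). NDUFB1, NDUFB3, NDUFB5 and NDUFA5 were these, and had a GC content of 39.9%, 44.1%, 39.8% and 35.0%, against a median of 47.9% over the 46. NDUFA5 was at 44.0, 48.3 and 60.7 FPKM in -Dox and at 44.9, 41.8 and 49.5 in +Dox. At the other end NDUFS8, NDUFA3 and NDUFS7 had differences between -Dox 3 and -Dox 1 of -0.46, -0.445 and -0.39, with GC contents of 57.9%, 56.4% and 60.8%. The log2 change itself had a Pearson correlation of 0.09 with GC content and of -0.10 with log2 length over the 46 genes. The part of length and GC content in the changes of single genes was not tested beyond the corrected fit.

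**Figure D4:**
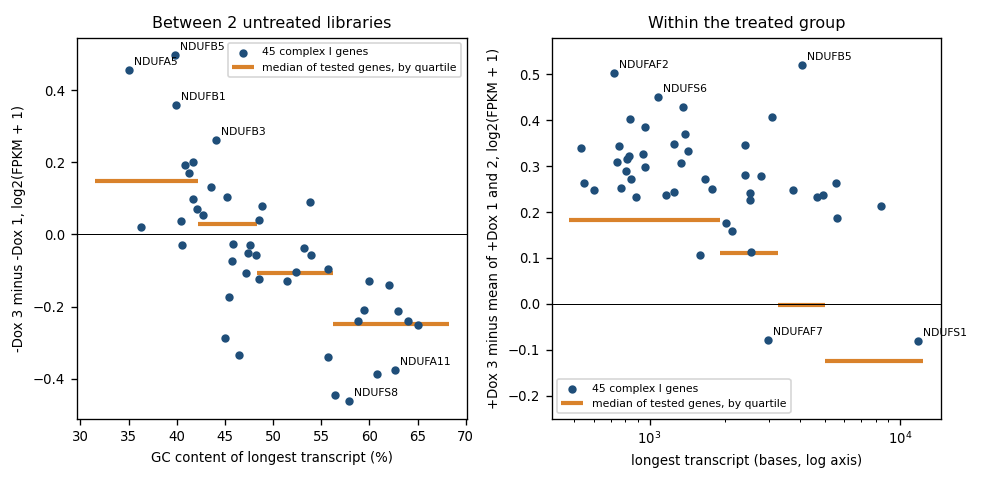
Left, the difference between 2 untreated libraries (-Dox 3 minus -Dox 1, log2 scale) against transcript GC content for 45 complex I genes (points), with the median of all tested genes in each GC quartile (bars); right, the excess of +Dox 3 over the mean of +Dox 1 and 2 against transcript length on a log axis. The points fall with GC content on the left (Pearson -0.73 over all 46), and on the right all but NDUFS1 and NDUFAF7 are above 0.

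Reads could also pass between these genes and their relatives. The table lists 61 pseudogene rows named after 20 of the 46 genes, of which 5 reached a mean of 1 FPKM. NDUFV2P1 was at 35.6 FPKM against 69.5 for NDUFV2, NDUFAF2P1 at 15.2 against 22.6 for NDUFAF2, and NDUFA5P11 at 12.8 against 48.2 for NDUFA5. The values of these 3 genes are uncertain to that extent. In GENCODE 29, 25 of the 46 genes share exonic bases with another gene on either strand. Besides NDUFC2, NDUFA13 shares 437 bases with AC011448.1 (1.71 FPKM) and 131 with YJEFN3 (8.79 FPKM) on its own strand. NDUFS3 shares 721 bases with PTPMT1 (16.7 FPKM), also on its own strand. No source used here says whether strand was used in counting.

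Promoter windows were read because most of the genes had changes in one direction. RefSeq (GRCh38.p14) gave a promoter for 39 of the 46, and the 250 bases before the start site were searched on both strands for motifs known from genes of the respiratory chain. They were the NRF1 core TGCGCA, which reads the same on both strands, the ETS family core CCGGAAG that GABPA binds, and the YY1 core ATGGCGG. No motif contains another. Shown here are 4 windows from the genes with changes among the larger ones, of which NDUFS6 and NDUFA9 hold the NRF1 core, NDUFB7 the ETS core and NDUFS4 none. They are among those that share at most 30 bases with an annotated exon of their own gene, and capitals mark the match. NDUFAF4 (log2 change 0.348, ETS core) and NDUFC1 (0.332, no match) also met this limit. Both had larger changes than NDUFA9 (0.331) but are not shown, so the 4 windows do not give the share of matches. NDUFS6 lies at chr5:1801157-1801406 (plus strand), NDUFS4 at chr5:53560389-53560638 (plus), NDUFA9 at chr12:4648864-4649113 (plus) and NDUFB7 at chr19:14572067-14572316 (minus).
NDUFS6: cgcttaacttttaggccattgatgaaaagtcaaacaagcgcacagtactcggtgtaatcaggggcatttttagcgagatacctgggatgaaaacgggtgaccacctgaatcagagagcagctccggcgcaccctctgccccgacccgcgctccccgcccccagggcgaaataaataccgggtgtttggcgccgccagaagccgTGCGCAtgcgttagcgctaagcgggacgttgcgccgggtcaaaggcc
NDUFS4: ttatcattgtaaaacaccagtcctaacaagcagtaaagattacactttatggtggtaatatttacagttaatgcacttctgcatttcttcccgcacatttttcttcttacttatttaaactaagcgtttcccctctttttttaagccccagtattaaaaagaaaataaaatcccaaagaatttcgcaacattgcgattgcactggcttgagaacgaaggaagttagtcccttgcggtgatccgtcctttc
NDUFA9: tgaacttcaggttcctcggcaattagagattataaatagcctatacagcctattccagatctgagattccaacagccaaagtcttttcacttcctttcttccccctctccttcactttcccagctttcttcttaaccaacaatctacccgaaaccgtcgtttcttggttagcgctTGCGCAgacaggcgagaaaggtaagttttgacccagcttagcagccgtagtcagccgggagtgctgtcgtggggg
NDUFB7: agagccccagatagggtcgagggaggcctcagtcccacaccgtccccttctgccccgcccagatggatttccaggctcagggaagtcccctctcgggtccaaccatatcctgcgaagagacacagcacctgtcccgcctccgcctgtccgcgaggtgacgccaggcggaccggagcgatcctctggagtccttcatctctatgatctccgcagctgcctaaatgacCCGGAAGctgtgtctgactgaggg

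How common the motifs were depended on the letters searched. The NRF1 core occurred in 9 of the 39 windows (23.1%), the ETS core in 6 (15.4%) and the YY1 core in 4 (10.3%). These counts take windows whatever their overlap with exons. Those of NDUFA1, NDUFA13, NDUFB11 and NDUFS7, each with a match, lay wholly within annotated exons of their own gene (250 bases). The NDUFA5 window began at 123601652, away from the listed end of the gene at 123557904. Other windows lay inside the listed gene. That of NDUFS3, with 2 ETS matches, began at 47578824, while the gene is listed from 47565336 to 47584562. The windows of NDUFV3 and NDUFB2, without a match, were also inside. Over all 27305 RefSeq promoters the shares were 7.05%, 8.82% and 2.83%, and over the 9947 promoters of tested genes 11.8%, 16.6% and 4.07%. Longer forms of the NRF1 and YY1 motifs, searched before these cores, occurred in 5 (12.8%) and 0 of the 39 windows, against 10.8% and 0.62% of the promoters of tested genes. With the longer NRF1 form the share in complex I genes was thus close to that of other expressed genes, and with the core it was higher, so no enrichment is read from either. The median log2 change was 0.28 in the 9 genes with the NRF1 core and 0.17 in the 30 without, 0.32 in the 6 with the ETS core and 0.19 in the 33 without, and 0.13 in the 4 with the YY1 core and 0.23 in the 35 without. A match is a description of letters and shows no binding.

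The mitochondrial genome encodes the remaining core subunits, which form the proton pumps of the membrane arm. Of these 7 transcripts 2 rose (3.69% of all tested genes) and 0 fell (4.77%) by limma, with a median log2 change of 0.12 (0.06 without +Dox 3). MT-ND1, the subunit at the ubiquinone tunnel, was at 2050, 2036 and 2080 FPKM in -Dox and at 2444, 2605 and 2982 FPKM in +Dox (log2 change 0.38, SE 0.09, limma adjusted p = 0.031, and 0.0101 without +Dox 3). MT-ND2 was at 2825, 2762 and 2823 FPKM and at 3350, 3270 and 3917 FPKM (log2 change 0.32, limma adjusted p = 0.0485, and 0.0101 without +Dox 3). In both the untreated libraries were close together and below every treated one. The other 5 had log2 changes from -0.05 (MT-ND5) to 0.24 (MT-ND3). The MT-ND1 and MT-ND2 calls were lost when any one untreated library or +Dox 2 was left out (up to 0.128 and 0.179), and that of MT-ND2 also when +Dox 1 was left out (0.0728).

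Over 11 assembly factors of complex I with other names the median log2 change was -0.09 (-0.13 without +Dox 3), with 1 called higher (3.69% of all tested genes) and 0 lower (4.77%) by limma, and 1 higher (13.6%) and 2 lower (14.3%) before adjustment of p. TMEM70, a factor for complexes I and V, was at 31.5, 29.6 and 27.9 FPKM in -Dox and at 34.6, 39.5 and 40.9 in +Dox (log2 change 0.36, limma adjusted p = 0.0434, and up to 0.143 when any one library other than +Dox 1 was left out). FOXRED1, an oxidoreductase needed for assembly, was at 18.0, 17.3 and 14.8 FPKM and at 12.9, 12.5 and 13.2 FPKM (log2 change -0.34, limma adjusted p = 0.0567). Its groups were apart in the opposite direction. Whether these factors differ as a set from the NDUFAF factors was not tested.

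The other complexes pass electrons on to oxygen and make ATP. Over 38 nuclear subunits of complexes II to V the median log2 change was 0.17 (0.07 without +Dox 3), and 32 were positive (49.6% of all tested genes). Of the 38, 1 was called higher (3.69%) and 2 lower (4.77%), and +Dox 3 was the highest library in 31 (28.0%). ATP5MC3, a subunit of the ATP synthase ring, was called higher (162 ± 3.40 to 215 ± 24.8 FPKM, log2 change 0.40, limma adjusted p = 0.0315), and the complex IV subunit COX8A (318 ± 12.6 to 230 ± 31.2 FPKM, log2 change -0.47, 0.0252) and the Rieske protein UQCRFS1 of complex III (34.6 ± 1.04 to 26.3 ± 3.71 FPKM, log2 change -0.39, 0.047) lower (SD, n = 3 each). These calls were lost when any one untreated library or +Dox 2 was left out, and those of COX8A and UQCRFS1 also when +Dox 1 was left out (limma adjusted p up to 0.159). Not called at 6 libraries were COX7A2 (84.3 to 105 FPKM, limma adjusted p = 0.0744) and ATP5F1B (421 to 506 FPKM, 0.0781). The same held for UQCRC2 (117 to 100.0 FPKM, 0.097) and the complex II subunit SDHB (47.9 to 58.0 FPKM, 0.0883). The complex II subunit SDHC (4.34 to 3.72 FPKM) was far from the threshold (limma adjusted p = 0.383), and its groups overlapped. No test of complex I against these complexes was made.

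Among 10 regulators of mitochondrial gene expression 9 were tested, of which 2 rose (3.69% of all tested genes) and 1 fell (4.77%). TFAM, the packaging and transcription factor of mitochondrial DNA, rose from 30.1, 32.7 and 33.4 FPKM to 44.6, 44.7 and 40.3 FPKM (log2 change 0.42, SE 0.08, limma adjusted p = 0.0208). In TFAM, unlike most complex I genes, +Dox 3 was the lowest of the treated libraries. Its longest transcript has 5414 bases, which places it in the longest quartile. Over all tested genes that quartile lay lower in +Dox 3 (median -0.125). Its 4 complex I genes had a median of 0.20, with NDUFS1 below 0 (-0.08). GABPB1, the partner of GABPA and named here because it was called, rose from 7.21, 8.76 and 8.43 FPKM to 10.6, 11.3 and 13.9 FPKM (log2 change 0.50, limma adjusted p = 0.0365, and 0.0729 without +Dox 3). MYC, a general activator of growth genes, fell from 99.6, 94.5 and 91.8 FPKM to 58.8, 57.1 and 64.3 FPKM (log2 change -0.66, SE 0.08, limma adjusted p = 0.00302). MYC was called whichever single library was left out (up to 0.0206). TFAM lost its call without -Dox 1, -Dox 2, +Dox 1 or +Dox 2 (up to 0.0864) and at equal FPKM totals (0.05024), and GABPB1 when any one library other than +Dox 1 was left out (up to 0.0984).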

How the data were processed

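RNA from 6 HCT116 libraries was sequenced, and the authors deposited 1 table of FPKM per gene and library. The deposited table names no unit: FPKM is inferred from its values, which are not whole, sum to unequal totals and have minimum steps that fall with transcript length. Per the submitters' processing notes Bowtie, BWA, STAR, Cufflinks, RSEM and kallisto and the build hg19 are named, with no role or version. The table's own gene positions matched GENCODE 29 on GRCh38 for 39321 of the 39331 shared identifiers, so GRCh38 is used here. Counts were not used. Depth was estimated from the steps of low FPKM values of single-exon genes, of which 46.2% to 52.5% lay within 0.1 fragment of a whole number, so no count test was run and the depths are approximate.

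Here log2(FPKM + 1) was tested with limma 3.58.1 in R 4.3.3 (moderated variances with trend and robust settings, group as the only term) over the 14475 genes that reached 1 FPKM in 3 or more libraries, and p-values were adjusted by Benjamini-Hochberg over all of them. The fit was repeated without +Dox 3. An exact permutation test of CAPG gave p = 0.1, the smallest that 3 against 3 libraries allow. The fitting script was tested on simulated data. Alternatives were another pseudocount (0.1), other filters, 2 scalings, a length and GC correction (14406 genes), library weights, a replicate block and leaving out each library. Same-numbered libraries of the groups had correlations of deviations of -0.043, 0.009 and -0.023. The members and lists were chosen with earlier results of these data known. Values in every library are given for members called in either fit, up to 4 members with the smallest p in each role, NDUFAB1, NDUFA4 and the members with the highest and lowest level. Up to 2 genes of each other list are named in the same way, but those of complexes II to V are given as group means. One member is counted in all totals but its own values are not reported here. Genes named outside this rule are marked or serve as examples of length and GC content.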

Additional observations from a re-analysis of the deposited data

How the results depend on the processing

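The number of calls changed with the setting. Direction was followed for 35 named genes, many of them named for a small p, and 1 of these reversed, NDUFS5 without +Dox 3. The filters and the replicate block leave each log2 change as it was, so they cannot change a direction. Over all 46 complex I genes 37 were positive with 6 libraries and 34 without +Dox 3. Besides NDUFS5, the genes NDUFV2 (log2 change 0.10 to -0.01) and NDUFV3 (0.03 to -0.045), not among the 35, turned negative without +Dox 3. The number of genes called was 1225 in all, 153 without the filter on low values, 2475 after the length and GC correction, 6094 with library weights, and between 223 and 1000 with 1 library left out. For complex I genes the 4 calls became 0 without the filter, 8 at equal FPKM totals, 9 with median-of-ratios scaling, 10 after the length and GC correction, 27 with library weights, and between 0 and 5 with 1 library left out. For the other lists the 9 calls became 1, 15 and 30 without the filter, after the correction and with weights, and between 1 and 7 with 1 library left out. Without +Dox 3, in alternatives chosen after seeing the data, the 5 calls became 0 without the filter, 11 after the correction, and between 0 and 6 with a further library left out. With the replicate number as a block, the calls were 211 over all genes, 0 in complex I and 1 in the other lists, and 2 in complex I without +Dox 3. The labels do not say whether the numbers pair the libraries, so both fits are given. The cause of the differences in calls was not tested. The NDUFS5 change of 0.09 lay between -0.001 (without +Dox 3) and 0.141 (without +Dox 1) with 1 library left out. CAPG kept its direction and call in every setting run. The untreated side of the weighted fit rested mostly on -Dox 2. Library weights were not run on 5 libraries, and summing repeated symbols had no case. Groups of 3 and approximate depth limit the precision.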
